A study of Caenorhabditis elegans with 2 samples.

Results

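The 70 protein-coding genes of Caenorhabditis elegans whose names begin with mrpl- or mrps- were examined for binding of the zinc-finger protein ZTF-7. They were taken by name from the Ensembl annotation of WBcel235, which lists 19985 protein-coding genes. Of the 70, 41 are mrpl- genes, which encode proteins of the large subunit of the mitochondrial ribosome, and 29 are mrps- genes, which encode proteins of the small subunit. Each gene was scored by the strongest ChIP-seq region whose summit lay within 1000 bp of its annotated 5' end. Near 11 of the 70 genes (15.7%) there was a summit past the authors' reproducibility threshold, against 5.61% of all protein-coding genes.

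Chromatin immunoprecipitation and sequencing (ChIP-seq) recovers the DNA bound to a protein through a tag or an antibody, here an eGFP tag on ZTF-7. The animals were whole L4 larvae, of mixed sex and of strain OP332, which carries the integrated array wgIs332 in an unc-119(tm4063) III mutant background. There were 2 biological replicates of 1 group, and no untagged or input sample was analysed here, so no conditions could be compared. The depth behind each list is unknown. Both replicates thus share the same line, the unc-119 mutation and the tagged protein. In whole larvae, binding in more cells and more binding per cell cannot be told apart.

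Mitochondria keep a small genome that encodes core subunits of the respiratory chain, and the mitochondrial ribosome translates its messages inside the organelle. The RNAs of this ribosome come from mitochondrial DNA, whereas all of its proteins are encoded in the nucleus, translated in the cytosol and imported. In C. elegans, lowering the level of some of these proteins, such as that encoded by mrps-5, is known to activate the mitochondrial unfolded protein response and to lengthen life. Many C. elegans genes also lie in operons, in which genes of 1 strand are transcribed together from a promoter upstream of the first gene.

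The DNA under the summits is shown for those member peaks whose windows could be printed, so that the words described below can be seen in place. The first 7 lines give 101 bp centred on the summit of 7 of the 10 peaks past the threshold, and the eighth gives the same window at mrpl-49, centred on its summit in replicate 2. Each is read 5' to 3' on the strand of the named gene, from the RefSeq copy of WBcel235 (ce11). Capitals mark bases in any of 10 words of 6 letters that were most enriched near the summits of the other nuclear peaks in the same list.
mrps-7: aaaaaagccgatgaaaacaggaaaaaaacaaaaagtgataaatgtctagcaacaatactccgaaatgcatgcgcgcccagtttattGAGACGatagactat
mrpl-12: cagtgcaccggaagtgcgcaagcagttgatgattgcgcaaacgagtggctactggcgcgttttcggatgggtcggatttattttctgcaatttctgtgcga
mrpl-28: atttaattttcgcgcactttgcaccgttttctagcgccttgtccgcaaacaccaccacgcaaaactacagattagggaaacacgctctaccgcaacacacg
mrpl-55: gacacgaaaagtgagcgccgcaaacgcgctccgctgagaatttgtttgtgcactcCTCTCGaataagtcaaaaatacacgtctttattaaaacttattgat
mrps-21: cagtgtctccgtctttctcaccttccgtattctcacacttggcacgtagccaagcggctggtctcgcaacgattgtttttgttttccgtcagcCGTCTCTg
mrpl-1: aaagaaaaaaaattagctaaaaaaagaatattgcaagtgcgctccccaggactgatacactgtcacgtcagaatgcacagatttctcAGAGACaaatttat
mrpl-35: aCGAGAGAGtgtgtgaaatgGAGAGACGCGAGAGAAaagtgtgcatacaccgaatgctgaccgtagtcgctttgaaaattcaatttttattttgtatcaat
mrpl-49: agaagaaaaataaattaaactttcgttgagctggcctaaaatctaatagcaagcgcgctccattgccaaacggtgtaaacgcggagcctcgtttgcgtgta
The windows are chrIV:14767906-14768006 (minus strand) for mrps-7, chrIII:10707206-10707306 (plus) for mrpl-12, chrII:156087-156187 (minus) for mrpl-28 and chrIV:443846-443946 (plus) for mrpl-55. Those of mrps-21, mrpl-1, mrpl-35 and mrpl-49 are chrIV:4660436-4660536 (minus), chrIV:7709857-7709957 (minus), chrIII:3510078-3510178 (plus) and chrV:12728395-12728495 (plus). All 8 summits lay in intergenic DNA. The windows of mrpl-23, mrpl-17 and mrps-35 are not shown, and that of mrps-35 overlaps an annotated UTR. The mrpl-1 window is also that of mrps-24, which starts on the other side of the same peak. Words from the list occurred in 5 of the 8 windows, and mrpl-35 had the most, with 24 of its 101 bases in capitals.

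The authors' list of peaks past the IDR threshold (irreproducible discovery rate, a measure of how well replicates rank the same peaks) held 1311 peaks, 1289 of them nuclear. The pooled list and each replicate's list held 30000 regions, which include background regions. Signal was assigned by the peak caller and was compared only within a list, where rank 1 is the highest. The deposited q-values reach a ceiling shared by all 1311 IDR peaks, at a −log10 q of 2.11, so peaks were ordered by signal.

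Mitochondrial ribosomal protein genes had a region nearby more often than protein-coding genes as a whole in every list. An IDR summit lay near 11 of 70 (15.7%, exact 95% binomial interval 8.11% to 26.4%, which covers counting error only), against 1121 of 19985 protein-coding genes (5.61%). At 8 of the 11 another protein-coding 5' end lay within 1000 bp of the same summit, and counting a summit for the nearest such gene alone left 7 (10%), against 4.15%. In the upper 50% of IDR peaks by signal it was 3 (4.29%), against 2.91%. In the pooled list the counts were 46 of 70 (65.7%, 53.4% to 76.7%) and 8033 of 19985 (40.2%). Replicate 1 had a region near 53 members (75.7%), against 47.3% of protein-coding genes, and replicate 2 had one near 44 members (62.9%), against 40.8%. The intervals treat genes as independent, which neighbours under 1 peak are not. No test was made of the list against other genes.

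The 1311 strongest regions of each replicate, as many as there are IDR peaks, gave a smaller difference in replicate 1 than in replicate 2. In replicate 1 they lay near 7 members (10%, 4.12% to 19.5%), against 5.13% of protein-coding genes. In replicate 2 they lay near 11 members (15.7%), against 5.42%. Both replicates had such a region near 5 members (7.14%), against 2.88%. These 5 were mrpl-23, mrps-7, mrpl-12, mrpl-17 and mrpl-55.

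**Figure D1:**
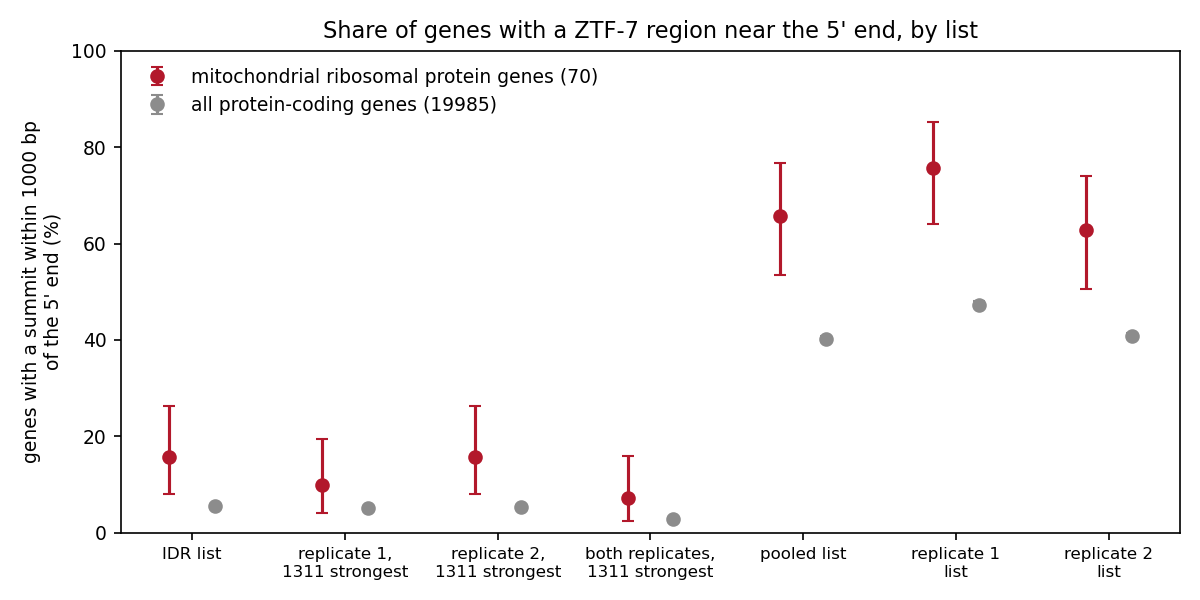
Share of genes (%, vertical axis) whose 5' end has a summit at most 1000 bp away, by list (horizontal axis), for the 70 mitochondrial ribosomal protein genes and for all 19985 protein-coding genes; bars are exact 95% binomial intervals. The members lie above all protein-coding genes in each of the 7 columns, from 7.14% against 2.88% in the 1311 strongest regions of both replicates to 75.7% against 47.3% in the list of replicate 1.

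Genes of the large and the small subunit had similar shares in the IDR list and less similar ones in the pooled list. IDR summits lay near 7 of 41 mrpl- genes (17.1%, 7.15% to 32.1%) and 4 of 29 mrps- genes (13.8%, 3.89% to 31.7%). The pooled list had regions near 30 of 41 mrpl- genes (73.2%) and 16 of 29 mrps- genes (55.2%), with a median pooled rank of 4408.5 for mrpl- genes and 5449.5 for mrps- genes. Both had a region in replicate 1 at about the same share, 75.6% of mrpl- genes and 75.9% of mrps- genes. In replicate 2 the shares were 73.2% of mrpl- genes (57.1% to 85.8%) and 48.3% of mrps- genes (29.4% to 67.5%), intervals that overlap.

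The 11 genes lay near 10 distinct IDR peaks, which sat in the weaker part of the list. Their median signal was 60.3, against 66.0 for all nuclear IDR peaks, and their median rank was 825.5, against a middle rank of 656. Among the 10 peaks, 3 were in the upper 50% of the list. Each of these peaks had the same rank and signal in the pooled list as in the IDR list.

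Large-subunit genes held the first rank and 7 of the 11 places, close to their share of the members, 41 of 70. The peak near mrpl-23, named for the bacterial protein L23 that sits at the exit of the peptide tunnel, ranked 217 with a signal of 101.2. It ranked 287 in replicate 1 (signal 44.3) and 227 in replicate 2 (signal 60.1). This was the best rank of any member in each of the 3 lists. The peak was also the farthest but one from its gene: the summit lay 960 bp upstream of the 5' end of mrpl-23 (chrI:6211270-6211885, minus strand), in an intron of fars-1, the gene before it on the same strand, and within an annotated pseudogene and the non-coding RNA T08B2.14. A snoRNA gene, T08B2.13, starts 21 bp from the summit, and the interval was only 81 bp wide (chrI:6212823-6212903), against a median of 324 bp for IDR peaks. No other protein-coding 5' end lay within 1000 bp, but the strongest pooled region within 500 bp of mrpl-23 ranked 10443.

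The gene mrpl-12 encodes the counterpart of bacterial L7/L12, the stalk protein that engages translation factors. Its peak (chrIII:10707094-10707417) ranked 613 with a pooled signal of 68.4, and ranked 687 in replicate 1 (signal 31.3) and 883 in replicate 2 (signal 37.3). Both replicates thus placed it among their 1311 strongest. The summit lay 505 bp upstream of mrpl-12 (chrIII:10707761-10708521, plus strand). It was nearer to 2 genes on the opposite strand, 228 bp upstream of Y39A1A.22 and 234 bp upstream of Y39A1A.21.

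At mrpl-28 and mrpl-55 no other protein-coding 5' end lay within 1000 bp of the summit. The gene mrpl-28 (chrII:154881-156009, minus strand) encodes a large-subunit protein, and the summit of its peak (chrII:155975-156298) lay 128 bp upstream of the 5' end. This peak ranked 671 (pooled signal 65.9), with rank 315 in replicate 1 (signal 42.8) and 1338 in replicate 2 (signal 32.2), just past the first 1311. The gene mrpl-55 (chrIV:443985-444786, plus strand) encodes a protein that in mammals belongs to the mitochondrial ribosome and has no bacterial counterpart. Its peak (chrIV:443734-444057) ranked 893 (pooled signal 57.9) and lay at nearly the same rank in both replicates, 724 in replicate 1 (signal 30.5) and 740 in replicate 2 (signal 39.5). The summit was 89 bp upstream, the nearest of the 11.

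The gene mrpl-17 (chrI:3162813-3163585, plus strand) encodes the counterpart of bacterial L17. Its peak (chrI:3162468-3162791) ranked 758 (pooled signal 62.6), with rank 807 in replicate 1 (signal 29.2) and 1151 in replicate 2 (signal 33.8). The summit lay 183 bp upstream of mrpl-17 and 239 bp upstream of vbh-1, a gene for an RNA helicase of the Vasa and Belle family that starts on the opposite strand. Both genes thus face the same peak.

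The gene mrpl-35 (chrIII:3510237-3510974, plus strand), for the counterpart of bacterial L35, was stronger in replicate 2. Its peak (chrIII:3509966-3510289) ranked 1132 in the pooled list (signal 52.3), 3313 in replicate 1 (signal 13.9) and 603 in replicate 2 (signal 42.7). The summit lay 109 bp upstream of mrpl-35 and 95 bp upstream of M01F1.4 on the opposite strand. Replicate 1 thus placed the region outside its 2622 strongest, which is 2 times the number of IDR peaks, and replicate 2 among its strongest 1311.

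A large-subunit gene and a small-subunit gene started on opposite strands on either side of 1 peak. The gene mrpl-1 (chrIV:7707574-7709701, minus strand) encodes the counterpart of bacterial L1, the protein of the mobile stalk beside the exit site for tRNA, and mrps-24 (chrIV:7710045-7710828, plus strand) encodes the counterpart of bacterial S3. Their 5' ends are 344 bp apart. The peak between them (chrIV:7709745-7710068) ranked 931 in the pooled list (signal 57.0), 3245 in replicate 1 (signal 14.1) and 817 in replicate 2 (signal 38.3). Its summit lay 206 bp upstream of mrpl-1, 138 bp upstream of mrps-24 and 171 bp upstream of emc-6, which encodes a subunit of the endoplasmic reticulum membrane complex. The gene mrpl-1 starts inside emc-6, on the same strand, so emc-6 rather than mrpl-1 is the nearest upstream neighbour of mrps-24. The 2 genes were counted as 2 members but rest on 1 peak.

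**Figure D2:**
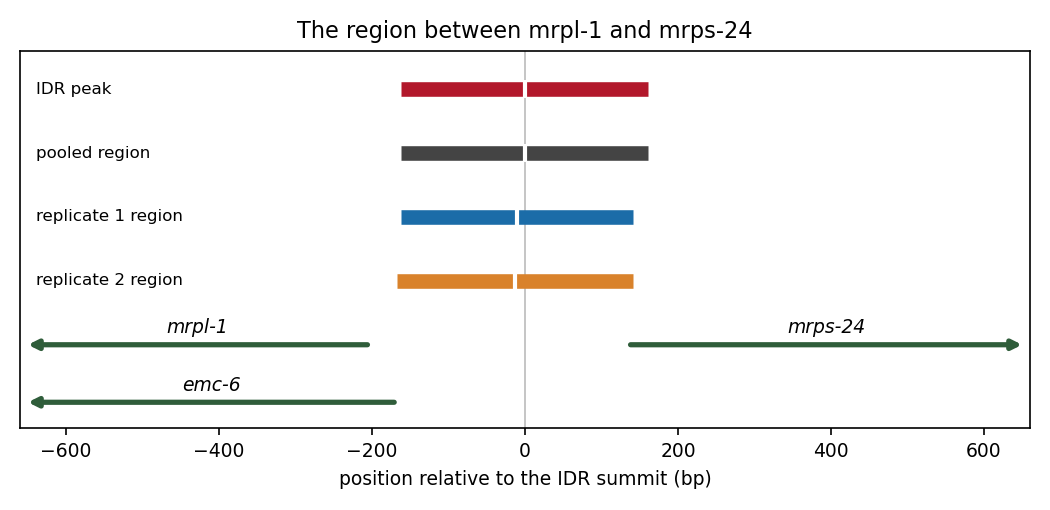
Map of mrpl-1, emc-6 and mrps-24, with position along the chromosome in bp relative to the IDR summit on the horizontal axis. Bars show the interval and summit of the region in the IDR list, the pooled list and each replicate. The 5' ends of mrpl-1 and mrps-24 lie 206 bp and 138 bp from the IDR summit, which is also the pooled summit. All summits drawn fall between these 5' ends.

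Among small-subunit genes, mrps-7 had the best rank. It is named for bacterial S7, which nucleates assembly of the head of the small subunit. Its peak (chrIV:14767794-14768117) ranked 604 (pooled signal 69.0), with rank 385 in replicate 1 (signal 40.1) and 1024 in replicate 2 (signal 35.4). The summit lay 226 bp upstream of mrps-7 (chrIV:14766773-14767730, minus strand) and 245 bp upstream of Y57G11C.3, near the middle of the DNA between 2 divergent genes.

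The other small-subunit genes lay under weaker peaks. The gene mrps-21 (chrIV:4659049-4659517, minus strand), for the counterpart of bacterial S21, had a summit 969 bp upstream, in a peak (chrIV:4660324-4660647) that ranked 899 (pooled signal 57.8), 839 in replicate 1 (signal 28.6) and 1791 in replicate 2 (signal 28.6). That summit was nearer to F29B9.11, the gene before mrps-21 on the same strand (285 bp), and to jmjd-1.2, a histone demethylase gene on the opposite strand (505 bp). The gene mrps-35 (chrV:18981306-18985865, plus strand) encodes a small-subunit protein without a bacterial counterpart. Its peak (chrV:18981016-18981339) ranked 1186 (pooled signal 51.3), 3028 in replicate 1 (signal 14.7) and 932 in replicate 2 (signal 36.6). The summit lay 128 bp upstream of mrps-35 and inside the annotated 5' UTR of sws-1, 301 bp downstream of the 5' end of that gene.

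**Figure D3:**
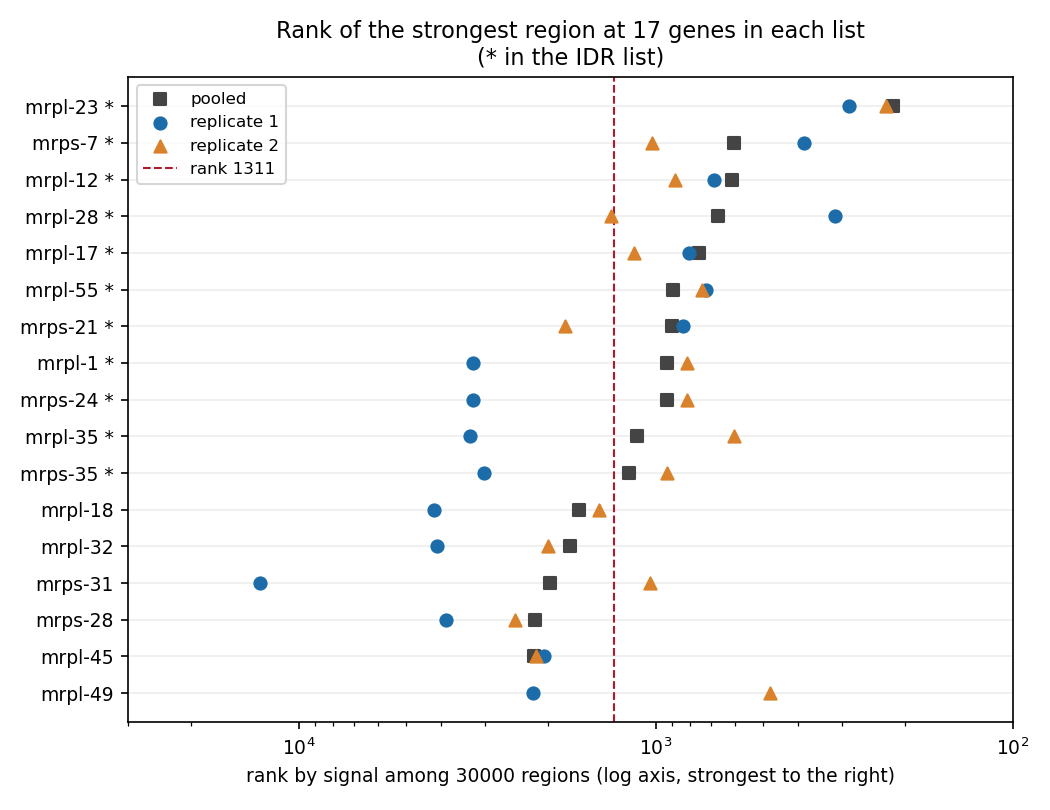
Rank of the strongest region within 1000 bp of the 5' end (horizontal axis, log scale, strongest to the right) in the pooled list and in each replicate, for the 11 members in the IDR list (starred) and 6 further members. The dashed line is rank 1311; mrpl-23 ranks between 217 and 287 in the 3 lists, whereas mrpl-1, mrps-24, mrpl-35 and mrps-35 fall past 2622 in replicate 1 but not in the other lists.

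At the 11 genes with an IDR summit the replicates' ranks differed, while their summits lay close together. Of the 11 genes, 7 were within the first 1311 ranks of replicate 1 and 9 within those of replicate 2, and 7 were within the first 2622 of both. The 4 that were not were mrpl-1, mrps-24, mrpl-35 and mrps-35, all weaker in replicate 1. A better rank was reached in replicate 1 by 6 genes and in replicate 2 by 5. These counts and those below are of genes, and mrpl-1 and mrps-24, both better in replicate 2, rest on 1 peak. The summits of the 2 replicates lay within 150 bp of each other at all 11 genes, with a median gap of 16 bp (3 to 88 bp). Among all protein-coding genes with an IDR summit and a region in both replicates, 1000 of 1099 (91%) had such a gap, with a median of 26 bp. Among all 39 members with a region in both replicates, 24 (61.5%) had such a gap, against 50.2% of protein-coding genes with regions in both. Without the members that had an IDR summit it was 13 of 28 (46.4%). The share of protein-coding genes without an IDR summit was not computed, so that figure has no reference. Since the IDR list is itself chosen by how well replicates match, closer summits at its genes can come from that choice.

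**Figure D4:**
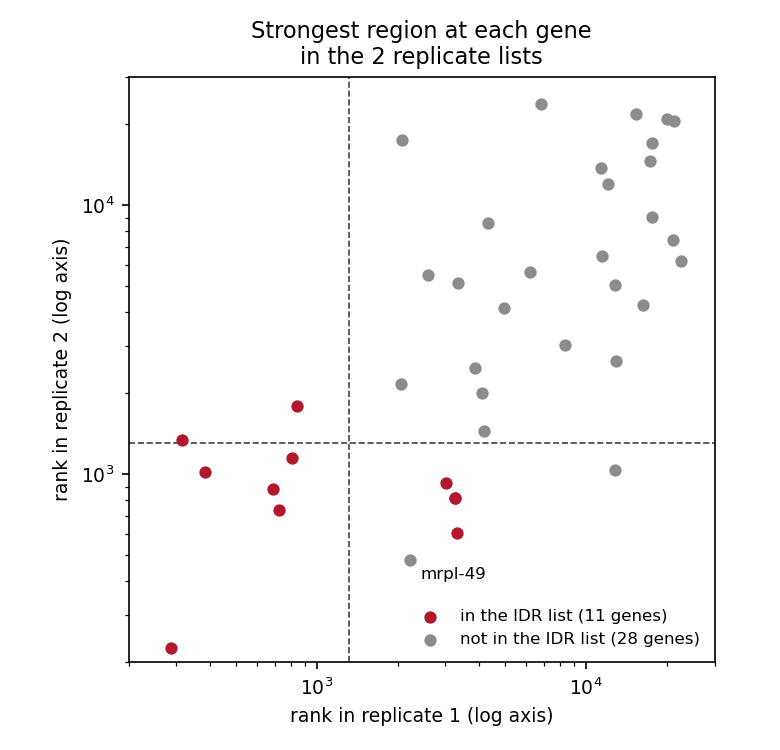
Rank of the strongest region near each of the 39 members found in both replicate lists, in replicate 1 (horizontal axis) and replicate 2 (vertical axis), both log scales; dashed lines mark rank 1311. Members in the IDR list gather at the low ranks of both axes, with 4 past 2622 in replicate 1, and mrpl-49 sits among them although it has no pooled region.

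Just outside the IDR list, whose lowest signal was 49.2, came 5 members with pooled ranks of 1643 to 2195. The nearest was mrpl-18, for the counterpart of bacterial L18, which binds 5S RNA in bacteria; it ranked 1643 (pooled signal 43.9), 4168 in replicate 1 and 1445 in replicate 2. Its summit lay 274 bp upstream, and 112 bp upstream of C14B9.8. The gene mrpl-32 ranked 1734 (pooled signal 42.8), 4103 in replicate 1 and 2002 in replicate 2, with the summit 370 bp upstream. Both were weaker in replicate 1.

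The gene mrps-31, for a small-subunit protein without a bacterial counterpart, differed most between replicates among these 5. It ranked 1980 in the pooled list (signal 40.1), 12845 in replicate 1 (signal 5.46) and 1041 in replicate 2 (signal 35.1). The gene mrps-28 ranked 2181 (pooled signal 38.1), 3871 in replicate 1 and 2479 in replicate 2, with the summit 115 bp upstream and 94 bp upstream of Y43F8C.7. The gene mrpl-45 encodes a protein that in mammals anchors the ribosome to the inner membrane. It ranked 2195 (pooled signal 38.0), 2057 in replicate 1 and 2160 in replicate 2, the closest match of the 5, and its summit lay 190 bp upstream of Y119D3B.12 and 348 bp upstream of mrpl-45.

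One member was high in both replicates and had no region in the pooled list. At mrpl-49 (chrV:12728631-12729417, plus strand), for a large-subunit protein that in mammals has no bacterial counterpart, replicate 1 had a region at rank 2208 (signal 17.6) and replicate 2 at rank 479 (signal 46.6). The summit lay 166 bp upstream in replicate 1 and 186 bp upstream in replicate 2, where it was also 333 bp upstream of rpl-28, a cytosolic ribosomal protein gene on the opposite strand. The nearest pooled summit was 2636 bp away, at rank 28686 (signal 8.87). Of the 1311 strongest regions of replicate 2, 14 overlapped no pooled region, and of the 892 that the 2622 strongest of replicate 1 also overlapped, 5 did not.

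The remaining members lay lower or had no region. In the pooled list, 35 members outside the IDR list had signals of 9.09 to 43.9 (median 21.4) and ranks of 1643 to 27882. The 46 members with a pooled region had a median rank of 4676, against 7759 for all protein-coding genes with one. A region in a replicate list but not in the pooled list was found at 13 members, of which 10 had it in replicate 1 only, 1 in replicate 2 only and 2 in both. Among those in replicate 1 only was mrps-16, at rank 1345 (signal 22.9). The gene mrps-5 was also in replicate 1 only, at rank 19259 (signal 3.93). The pooled list alone had a region near 65.7% of members, and the pooled and replicate lists together near 84.3%. For all protein-coding genes these shares were 40.2% and 58.4%, a rise of similar size when taken over all genes of each set. Only genes without a pooled region could add to this rise, 24 of the 70 members and 11952 of the 19985 protein-coding genes. Whether the members differ from other genes among those was not tested.

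No region lay near 11 members in the pooled or replicate lists. They were mrpl-2, mrpl-10, mrpl-44, mrpl-51, mrps-9, mrps-11, mrps-17, mrps-18B, mrps-18.C, mrps-22 and mrps-30. Of these, 7 are small-subunit genes and 4 large-subunit genes. At least 1 of the 3 lists had a region near the other 59 members (84.3%), against 58.4% of protein-coding genes. With the depth unknown, a missing region says only that none was listed.

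At all 11 members with an IDR summit it was upstream of the 5' end, with a median position of -183 bp, and at 8 (72.7%) it was within 300 bp. Among protein-coding genes with an IDR summit, 88% had it upstream, 53.8% within 300 bp upstream, and the median position was -216 bp. In the pooled list, 34 of 46 members (73.9%) had it upstream and 24 (52.2%) within 300 bp, against 71.8% upstream and 35.1% within 300 bp among protein-coding genes with a pooled region. The upstream share in the pooled list was thus close to that of protein-coding genes. Of the 12 members whose pooled summit was downstream, 9 were in same-strand runs, and the highest signal was 30.5, at mrpl-21. Such runs held 38.6% of all members, against 17.7% of protein-coding genes. Their share among protein-coding genes with a downstream pooled summit was not counted, so the 9 have no reference.

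**Figure D5:**
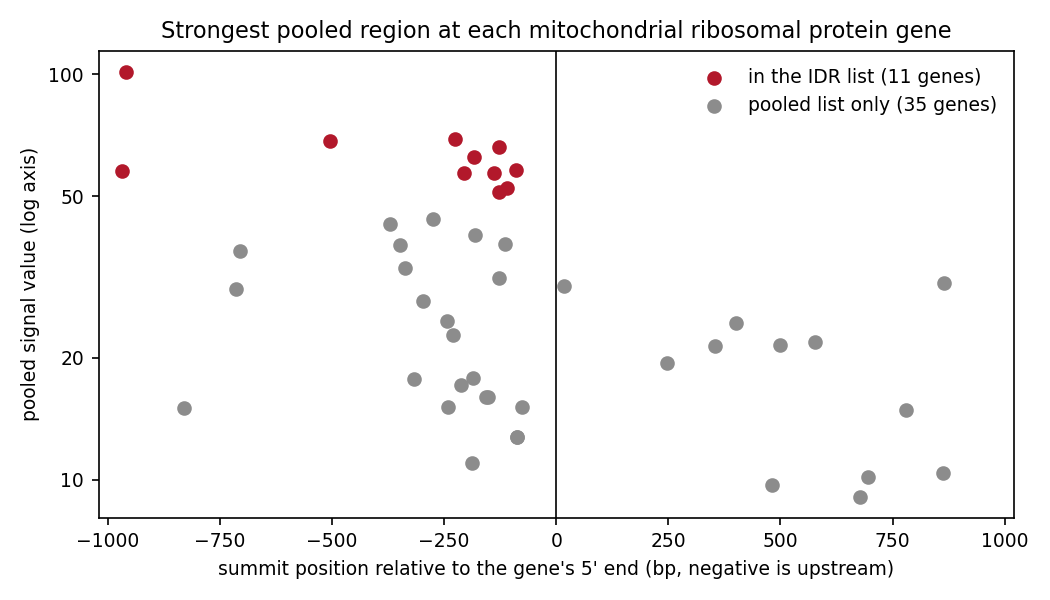
Position of the strongest pooled summit relative to the 5' end (horizontal axis, bp, negative is upstream) and its signal (vertical axis, log scale) for 46 members. The 11 members in the IDR list are all upstream, mostly within 300 bp, with mrpl-23 and mrps-21 near the edge of the window at -960 and -969 bp.

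The members' surroundings differed from those of other genes. A divergent arrangement, in which the nearest upstream gene lies on the other strand with its 5' end within 1000 bp, held 25 members (35.7%), against 17.2% of protein-coding genes. Same-strand runs, in which the 3' end of the nearest upstream gene lies within 500 bp, as in operons, held 27 (38.6%), against 17.7%. The 5' end was inside another gene at 5 members (7.14%), against 6.98%, and 13 members (18.6%) had no such neighbour, against 58.1%. No operon annotation was used.

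IDR summits lay near 5 of 25 divergent members (20%), against 12.5% of all divergent genes. They lay near 2 of 27 members in runs (7.41%), against 3.7%, and near 2 of 5 members inside another gene (40%), against 5.24%. Among the rest they lay near 2 of 13 (15.4%), against 4.18%. With the arrangements weighted as among the 70 members, the shares of all protein-coding genes gave 7.06%, or 4.94 genes, beside the 11 counted and the unweighted 5.61%. The part of the arrangement in the members' count was not tested beyond this.

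The first gene of the run had an IDR summit more often than the member itself. It did for 8 of the 27 members in runs (29.6%), against 374 of 3537 protein-coding genes in runs (10.6%). The strongest was at rpn-3, a proteasome subunit gene that heads the run of mrpl-32, with rank 101 (signal 147.0) and the summit 192 bp upstream of rpn-3 and 2596 bp upstream of mrpl-32. Next was clsp-1, which heads the run of mrpl-54, with rank 204 (signal 103.5) and the summit 260 bp upstream of clsp-1 and 4004 bp upstream of mrpl-54. The gene before the member ended 411 bp from mrpl-32 and 374 bp from mrpl-54, against 94 to 236 bp for the other members with such a head. Whether any of these runs is an operon was not tested. The run of mrpl-23 had a second IDR summit upstream of its first gene, fars-1, which encodes a phenylalanyl-tRNA synthetase subunit, at rank 577 (signal 69.8) and 890 bp upstream.

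The other heads had ranks between 365 and 899. They were F21D5.7 for mrps-33 (rank 365), vps-37 for mrpl-48 (rank 407), W04D2.4 for mrps-11 (rank 426), misc-1, a mitochondrial carrier gene, for mrpl-41 (rank 631), and F29B9.11 for mrps-21 (rank 899). For mrps-11, which had no region of its own, the head's summit lay 3300 bp away. With a summit at either the member or the head of its run, the count was 17 of 70 (24.3%), against 7.28% of protein-coding genes. That count adds 6 members with no IDR summit of their own, and was made after the values were seen.

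The members' shares by chromosome differed from those of protein-coding genes. Chromosome III held 22 of the 70 members (31.4%), against 13.2% of protein-coding genes, and 2 of its 22 had an IDR summit, against 8.79% of all protein-coding genes there. Chromosome IV held 11 members, of which 5 had one, against 5.64% of its protein-coding genes, and 2 of these 5 share a peak. On chromosome I 2 of 15 members had one, against 6.15%. On II it was 1 of 12, against 4.41%, and on V 1 of 10, against 3.88%. The X held none of the 70, against 13.7% of protein-coding genes.

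The 6-letter words that distinguish the centre of the other IDR peaks were in part found at the members too. The 10 words were those present at the largest excess of peaks within 50 bp of the summit compared with flanks at 250 to 302 bp, at the 1279 other nuclear IDR peaks, on both strands. At least 1 of them occurred in the centre of 7 of the 10 member peaks (70%), against 770 of the others (60.2%), and in the flanks of 4 (40%), against 26%. The word AGAGAC, in capitals near the end of the mrpl-1 window, occurred in the centre of 5 member peaks, against 18.6% of the others. The word CGTCTC, which the mrps-7 window holds on its other strand, occurred in 4, against 15.3%, and also in the flanks of 3, against 2.42%. Words of the list overlap each other, so these counts are not separate. GACGCA occurred in 0 member peaks, against 17% of the others. The same was true of ACGCAG, against 16.3%.

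A further 6 motifs, chosen by name for this work, were searched on both strands within 100 bp of the summit. TTTCAG is the 3' splice site that trans-splicing also uses, and it occurred in 1 of the 10 member windows of 201 bp, against 17% of those at the other nuclear IDR peaks. CTCTCT, a GA repeat and the other strand of a word in the list above, occurred in 1, against 32.1%. TGATAA, which GATA factors bind, occurred in 1, against 23.4%. CCAAT occurred in 1 as well, against 29.9%. The E-box CACGTG occurred in 0, against 7.66%. The GC box GGGCGG also occurred in 0, against 9.07%. In these windows of 201 bp each of the 6 was in a smaller share of the member peaks than of the others. For TTTCAG the direction turned with the window, since within 150 bp of the summit it occurred in 6 of 10 member windows (60%), against 29.8%. A match is only a match of letters, and with 10 windows each counts for 10%. The windows' GC content was 29.9% to 51.2% (median 39.1%), against a median of 41.8%.

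Over promoters, from 250 bp before to 50 bp after the 5' end, the members differed from other genes in 2 of the 6 motifs by more than 10 percentage points. TTTCAG was in 47 of 70 (67.1%), against 51.7% of protein-coding genes, and CCAAT in 20 (28.6%), against 45.5%. Among the 11 with an IDR summit, TTTCAG was in 5 (45.5%), below the share of protein-coding genes, and CCAAT in 0. CTCTCT was in 27.3% of these 11, TGATAA in 27.3%, and CACGTG and GGGCGG in 9.09% each. The other 4 motifs differed by less over the 70 members, and CTCTCT was in 12.9%, against 17.5%. For TGATAA it was 27.1%, against 30.2%. For CACGTG the members' share was 7.14%, against 5.82%, and for GGGCGG it was 8.57%, against 7.83%. The members' promoters had a median GC content of 32.3%, against 34.3%, and its part in these shares was not tested.

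Other genes of the same processes gave a range of shares. IDR summits lay near 39 of 81 cytosolic ribosomal protein genes (48.1%, 36.9% to 59.5%), an interval that lies above that of the mitochondrial ribosomal protein genes (8.11% to 26.4%). They lay near 20 of 67 oxidative phosphorylation genes (29.9%, 19.3% to 42.3%), whose interval overlaps it. The medians of the pooled ranks were 4676 for the mitochondrial ribosomal protein genes, 1037 for the cytosolic ones and 2221 for oxidative phosphorylation genes. No test of these differences was made.

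Of the 15 other mitochondrial translation genes, which encode elongation and recycling factors and tRNA synthetases, 1 had an IDR summit (6.67%), ears-2, for the mitochondrial glutamyl-tRNA synthetase. It ranked 370 (signal 84.8), 800 in replicate 1 and 189 in replicate 2, with the summit 32 bp upstream. Of 5 genes for the upkeep and transcription of mitochondrial DNA, 1 had one, mtss-1, for the single-stranded DNA-binding protein, at rank 634 (signal 67.5). Of 13 import genes, 4 had one (30.8%, 9.09% to 61.4%), led by tomm-20, for a receptor of the outer membrane, at rank 105 (signal 145.6). The others were timm-17B.1 (rank 206), tin-9.1 (rank 654) and timm-23 (rank 1051).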

How the data were processed

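ChIP-seq of eGFP-tagged ZTF-7 gave peak lists for 2 biological replicates of 1 group, for both pooled, and past the IDR threshold. The authors deposited a signal per region, assigned by their peak caller, and a q-value on the −log10 scale. Which peak caller, aligner and IDR cutoff they used is not given in the sources used here. Without read counts, the depth of each sample is unknown. Lists on ce11 were used, and those on ce10 were not used here.

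Genes came from Ensembl release 115 and sequence from RefSeq. The summit is the interval start plus the deposited offset, converted to count from 1. A member was counted when its 5' end had a summit at most 1000 bp away, and the strongest such region gave its values. The assignment was tested on simulated data. Members named were those with an IDR summit, the 5 others of best pooled rank, any other among the 1311 strongest of either replicate, and coding neighbours under the same summits. Other genes and members named, among them mrps-5, mrps-16 and mrpl-21, those without a region and the first genes of runs, were chosen after their values were seen. The members and lists were chosen with earlier results of these data known. No hypothesis test was made, with 1 group and no control. Alternatives were other windows, 5' ends, assignments, stronger peaks and each replicate alone. Work was done in Python 3.11.15 with pandas 2.3.3, numpy 2.4.6 and scipy 1.17.1, and plots were drawn with matplotlib 3.10.9.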

Additional observations from a re-analysis of the deposited data

How the results depend on the processing

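The count of 11 members with an IDR summit was 8 with a window of 500 bp, 16 with 2000 bp, 11 with the 5' ends of all transcripts and 12 with any overlap of the interval. As a share of members it was 11.4% at 500 bp and 22.9% at 2000 bp. It was 7 when each summit went only to its nearest coding 5' end, which took away mrpl-1, mrpl-12, mrpl-35 and mrps-21. It was 3 in the upper 50% of IDR peaks and 7 when each replicate had to have 1 of its 2622 strongest regions over the peak. The 1311 strongest regions of 1 replicate alone gave 7 to 11, with 7 from replicate 1, where mrpl-1, mrps-24, mrpl-35 and mrps-35 were lost. Replicate 2 alone lost mrpl-28 and mrps-21 and added mrpl-49 and mrps-31. The share of protein-coding genes, 5.61%, was 4.35% at 500 bp, 7.96% at 2000 bp, 4.15% by nearest 5' end, 2.91% in the upper 50%, 4.5% with both replicates, 5.13% to 5.42% from 1 replicate and 5.95% by overlap. It was lower than the members' share under each of these. The count of 46 members with a pooled region was 38 at 500 bp and 50 at 2000 bp, and 44 to 53 from 1 replicate, against 40.8% to 47.3% of protein-coding genes from 1 replicate. The 5 members among the 1311 strongest of both replicates were 9 among the 2622 strongest, 3 at 500 bp and 8 at 2000 bp. For the pooled counts at 500 bp and 2000 bp and these 3 counts, the share of protein-coding genes was not computed. They show only how the members' counts move. Chosen after seeing the data, the member's own 5' end or that of its run gave 17, and a limit of 150 bp between replicate summits kept the count at 5. TTTCAG was in 0 of 10 member windows within 50 bp of the summit, against 6.02% of the others, and in 6 within 150 bp, against 29.8%, which reverses the order seen within 100 bp. The cause of these shifts was not tested, other than that narrower windows and fewer peaks hold fewer summits. No paired analysis was possible because there was 1 group and no test. With 70 genes, 10 peaks and unknown depth, counting error is wide, and no control shows the background.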

Other observations

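Below the IDR list, 1 region was shared by 2 members. In replicate 1 the region at rank 14106 (signal 5.08) was the strongest near both mrps-2 and mrpl-4, which lie in 1 same-strand run, and neither had a pooled region. The gene mrps-12, named for the bacterial protein S12 of the decoding centre, ranked 3175 in replicate 1 (signal 14.3), had no region in replicate 2 and ranked 17452 in the pooled list (signal 12.7). Regions in replicate 1 only were found at 14 members, with ranks of 1345 to 29744, and in replicate 2 only at 5, with ranks of 2144 to 20890. Among all protein-coding genes too, more had a region in replicate 1 (47.3%) than in replicate 2 (40.8%). At mrps-28 the strongest pooled region within 2000 bp ranked 599, against 2181 within 1000 bp. These genes were picked after their values were seen.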
